A study of Homo sapiens with 9 samples.

Results

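The clustered protocadherins were examined in PC-3 cells, an established line from a bone metastasis of a prostate carcinoma. The genes were taken as every protein-coding gene whose GENCODE symbol was PCDHA or PCDHAC with a number, PCDHB with a number, or PCDHGA, PCDHGB or PCDHGC with a number. This gave 53 of the 60617 genes in the files, 15 in the alpha cluster, 16 in the beta cluster and 22 in the gamma cluster. All of them lie on the plus strand of chromosome 5 (GRCh38), from chr5:140786136 at the start of PCDHA1 to chr5:141512977 at the end of PCDHGC3. The samples were 9 RNA-seq libraries. In the first group, cells received the vehicle alone (controls, n = 3). In the second, they received 1 µM of decitabine, a nucleoside analogue that traps DNA methyltransferases (decitabine, n = 3). In the third, 200 µM of S-adenosylmethionine (SAM), the methyl donor of the cell, was given together with 1 µM of decitabine (combination treatment, n = 3). The labels gave 5 days of treatment for all 3 groups, and the doses came from the methods of the study. All libraries come from a single cell line grown in culture, and the sources used here do not say whether the 3 libraries of a group were separate cultures, so p-values measure the spread between these libraries, which may be technical.

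Clustered protocadherins are adhesion molecules of the cell surface with extracellular cadherin repeats, and they are best known from the nervous system. Each neuron switches on a small, largely random choice of them, and matching combinations on opposing membranes bind each other, so that a cell can tell its own branches from those of its neighbours. Every gene of the alpha and gamma clusters has a variable exon of its own, with its own promoter, that codes for the extracellular and transmembrane parts. This exon is spliced to constant exons at the end of the cluster, which all genes of the cluster share. Beta genes have no constant exons. The last genes of the alpha and gamma clusters are called C-type (PCDHAC1, PCDHAC2, PCDHGC3, PCDHGC4 and PCDHGC5) and differ from the others in that they are not chosen at random. The promoters are known to be kept silent by DNA methylation, and the insulator protein CTCF with the cohesin complex joins the chosen promoters to distant enhancers when they are free of methylation.

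Many of the promoters carry the sequence element for which the clusters are known, a conserved element with the letters CGCT at its centre. Stretches of it are shown because it holds a CpG, the dinucleotide that is methylated. RefSeq promoter windows (GRCh38.p14), 250 bases before to 50 bases after a start, matched 47 of the 53 genes. The other 6, PCDHA3, PCDHA13, PCDHB6, PCDHB11, PCDHGA12 and PCDHGC5, are named only. CGCT, searched on both strands, was found in 46 of these 47 windows and in 70.0% of all 35116 RefSeq windows. The member window without CGCT was that of PCDHA9, which holds gatgtcactcttt, against gatgtCGCTcttt in that of PCDHA4. The RefSeq start of PCDHA9 lies 610 bases downstream of its GENCODE start. That of PCDHA11 lies 774 bases downstream, and its window held CGCT. On the strand of the genes, the words of 8 letters held by most windows of a cluster, listed after counting, were ATGTCGCT and GATGTCGC in the alpha cluster (9 of 13 windows each, against 0.154% and 0.205% of all windows), GGTGGCGC and GTGGCGCT in the beta cluster (13 of 14 each, against 1.23% and 0.638%) and GCCGCTGT in the gamma cluster (11 of 20, against 0.897%). These words overlap each other and CGCT. None of them was found in a window of a member of either other cluster. Among the windows without the words of their own cluster were those of PCDHA9, PCDHA11, PCDHAC1, PCDHAC2 and PCDHB1. The CGCT of these words lay at a median of -48 bases from the RefSeq start in 9 alpha windows, -61 in 13 beta windows and -65 in 11 gamma windows. In the following stretches of 30 bases, read 5′ to 3′ on the plus strand, the capitals mark CGCT. They belong to 3 genes of each cluster, among them genes that were higher after both treatments (PCDHA10, PCDHB3, PCDHB5, PCDHGA10, PCDHGC3) and genes that were lower (PCDHA4, PCDHA8, PCDHB2).
PCDHA4, chr5:140806982-140807011: agccacatgatgtCGCTctttaccacaaaa
PCDHA8, chr5:140841133-140841162: agccacatgatgtCGCTgtctaccaagaag
PCDHA10, chr5:140855844-140855873: agccaccggatgtCGCTgtcgtccacaaaa
PCDHB2, chr5:141094547-141094576: agacgcggggtggCGCTgcagccttagaag
PCDHB3, chr5:141100396-141100425: gaacgcatggtggCGCTgttgactaagaag
PCDHB5, chr5:141135182-141135211: ggacgcctggtggCGCTgcaggctaagagt
PCDHGA10, chr5:141412934-141412963: ggactctgagcgcCGCTgttcacctactag
PCDHGB4, chr5:141387620-141387649: tgactctgggcgcCGCTgttggccaaagtg
PCDHGC3, chr5:141475883-141475912: ggactctgtgtgcCGCTgtcggccaatgaa
In the alpha and beta clusters, the words were thus held by genes that were higher and by genes that were lower. The gamma stretches shown belong to genes that were higher. The windows of PCDHGB2 and PCDHGA5, gamma genes that were lower, held GTCGCTGT and not GCCGCTGT. That of PCDHGA11, which was higher, also lacked GCCGCTGT. A match of letters is a description and not a binding site, and neither methylation nor binding was measured at these promoters here.

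The C-type promoters held more CpG than most others, with an overlap at the lower end. A window of 300 bases held a median of 7.0 CpG over the 11 alpha genes that are not C-type, 7.5 over 14 beta genes and 6.5 over 18 gamma genes, against 14.0 over all RefSeq windows. The 4 C-type windows held 15 (PCDHAC2), 18 (PCDHGC3), 23 (PCDHGC4) and 27 (PCDHAC1), and the highest value of the other 43 was 16 (PCDHGB6). Without the C-type genes, the median was 8.0 over 13 windows of genes that were higher after both treatments (5 to 16), 6.0 over 5 windows of genes that were lower after both (4 to 10) and 6.0 over 15 windows of genes with too few counts for a test (3 to 12). These ranges overlap. As an example, the 250 bases before the RefSeq start of PCDHGC3, the gene that went from no counts to the second-highest mean of the gamma cluster, are shown beside those of PCDHB5, a beta gene with few CpG that was also higher. In both, the capitals mark CpG, of which there are 15 in the first and 4 in the second.
PCDHGC3, chr5:141475716-141475965: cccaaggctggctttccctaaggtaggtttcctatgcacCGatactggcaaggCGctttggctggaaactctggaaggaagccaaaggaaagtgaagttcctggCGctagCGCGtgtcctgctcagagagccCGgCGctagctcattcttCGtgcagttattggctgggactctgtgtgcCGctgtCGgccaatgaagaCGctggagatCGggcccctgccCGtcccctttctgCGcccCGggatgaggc
PCDHB5, chr5:141134956-141135205: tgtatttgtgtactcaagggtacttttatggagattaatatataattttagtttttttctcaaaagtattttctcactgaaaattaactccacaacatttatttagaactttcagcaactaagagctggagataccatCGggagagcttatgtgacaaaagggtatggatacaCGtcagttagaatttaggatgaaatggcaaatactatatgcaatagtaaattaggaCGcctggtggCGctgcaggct

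**Figure D1:**
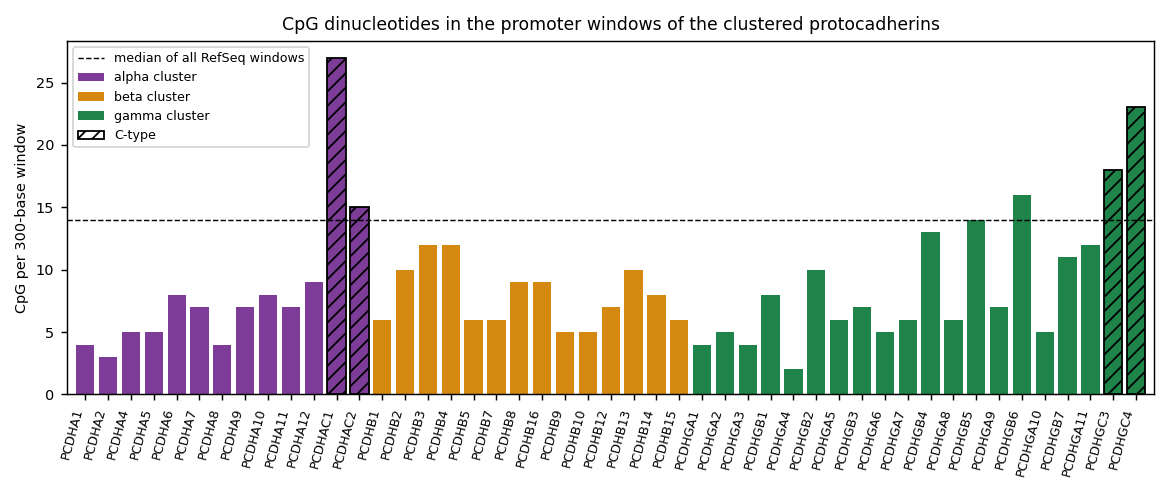
CpG dinucleotides in the RefSeq promoter window of 47 clustered protocadherins, in order along the chromosome, as bars (y axis, CpG per window of 300 bases), coloured by cluster and hatched for C-type genes. The 4 C-type bars reach 15 to 27 and stand above the dashed line at 14.0, the median of all RefSeq windows, as does PCDHGB6 at 16, which is also above PCDHAC2.

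The libraries held 21934307 to 22489684 estimated counts, and their scaling factors were 0.895 to 0.902 in the controls, 1.06 to 1.08 after decitabine and 1.03 to 1.07 after the combination treatment. A counts-per-million value (CPM) is a rounded count scaled by the effective size of its library. The labelled line was checked against its markers. KRT8, KRT18, EPCAM and VIM had means between 17.3 and 1262 CPM in the controls, and KLK3, a marker of prostate cells that this line is known to lack, had none. Neural genes were not uniformly present. RBFOX3, SNAP25 and OLIG2 did not have enough counts for a test in any comparison, TUBB3 and NEFL were lower after both treatments, and MAP2 (2.67 CPM in the controls, 17.0 after decitabine and 7.08 after the combination treatment), SYP (2.22, 15.8 and 16.2 CPM) and GFAP (0.0662, 2.87 and 1.49 CPM) were higher after both, so that 3 of the 5 neural genes tested rose and 2 fell. Changes either way were common, with 36.3% of all genes tested higher and 32.5% lower after decitabine. After the combination treatment, the shares were 35.9% and 31.3%. The part of these neural genes in the results on protocadherins was not tested. In bulk libraries, more cells that express a gene and more RNA of it per cell cannot be told apart.

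How the counts of single genes came about sets how far they can be read. The counts are estimates of kallisto, which divides reads from sequence shared by several transcripts between them. In GENCODE 44, the share of the 31-base words of a gene that occur in no other gene was between 0.947% (PCDHA1) and 70.8% (PCDHA4) in the alpha cluster, between 26.6% (PCDHGB4) and 61.8% (PCDHGA6) in the gamma cluster, and between 38.1% (PCDHB2) and 92.0% (PCDHB1) in the beta cluster. The single-gene values of the alpha and gamma clusters are therefore partly set by that division. The sum over a cluster does not depend on how reads were divided within it, but it can depend on division with genes outside it. Of the words of PCDHB2, 42.2% also occur in the antisense gene PCDHB1-AS1, which had 0 to 7 counts per library. Whether the authors' counting used strand is not given in the sources used here, so reads of a gene and of its antisense partner may not be told apart.

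The controls expressed a narrow set of these genes. Between 17 and 18 of the 53 genes had at least 10 counts in a control library, against 32 to 34 after decitabine and 27 to 30 after the combination treatment. The groups did not overlap in this number. These are counts before scaling, and the scaling factors were 0.895 to 0.902 in the controls and 1.03 to 1.08 after treatment. The same CPM thus gives fewer counts in a control library. The share of all genes with at least 10 counts was not computed, so the difference is not shown to be particular to these genes. Per kilobase of the canonical transcript, the highest mean levels in the controls were 2.99 ± 0.207 CPM per kb for PCDHB2 (SD, n = 3), 2.19 ± 0.195 for PCDHAC1, 1.87 ± 0.222 for PCDHAC2, 1.60 ± 0.236 for PCDHA13 and 1.32 ± 0.371 for PCDHA12. The means of PCDHAC1 and PCDHAC2 lay within the sum of their SDs, as did those of PCDHAC2 and PCDHA13. The highest level per kb in the gamma cluster of the controls was that of PCDHGB2, 0.388 ± 0.169.

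**Figure D2:**
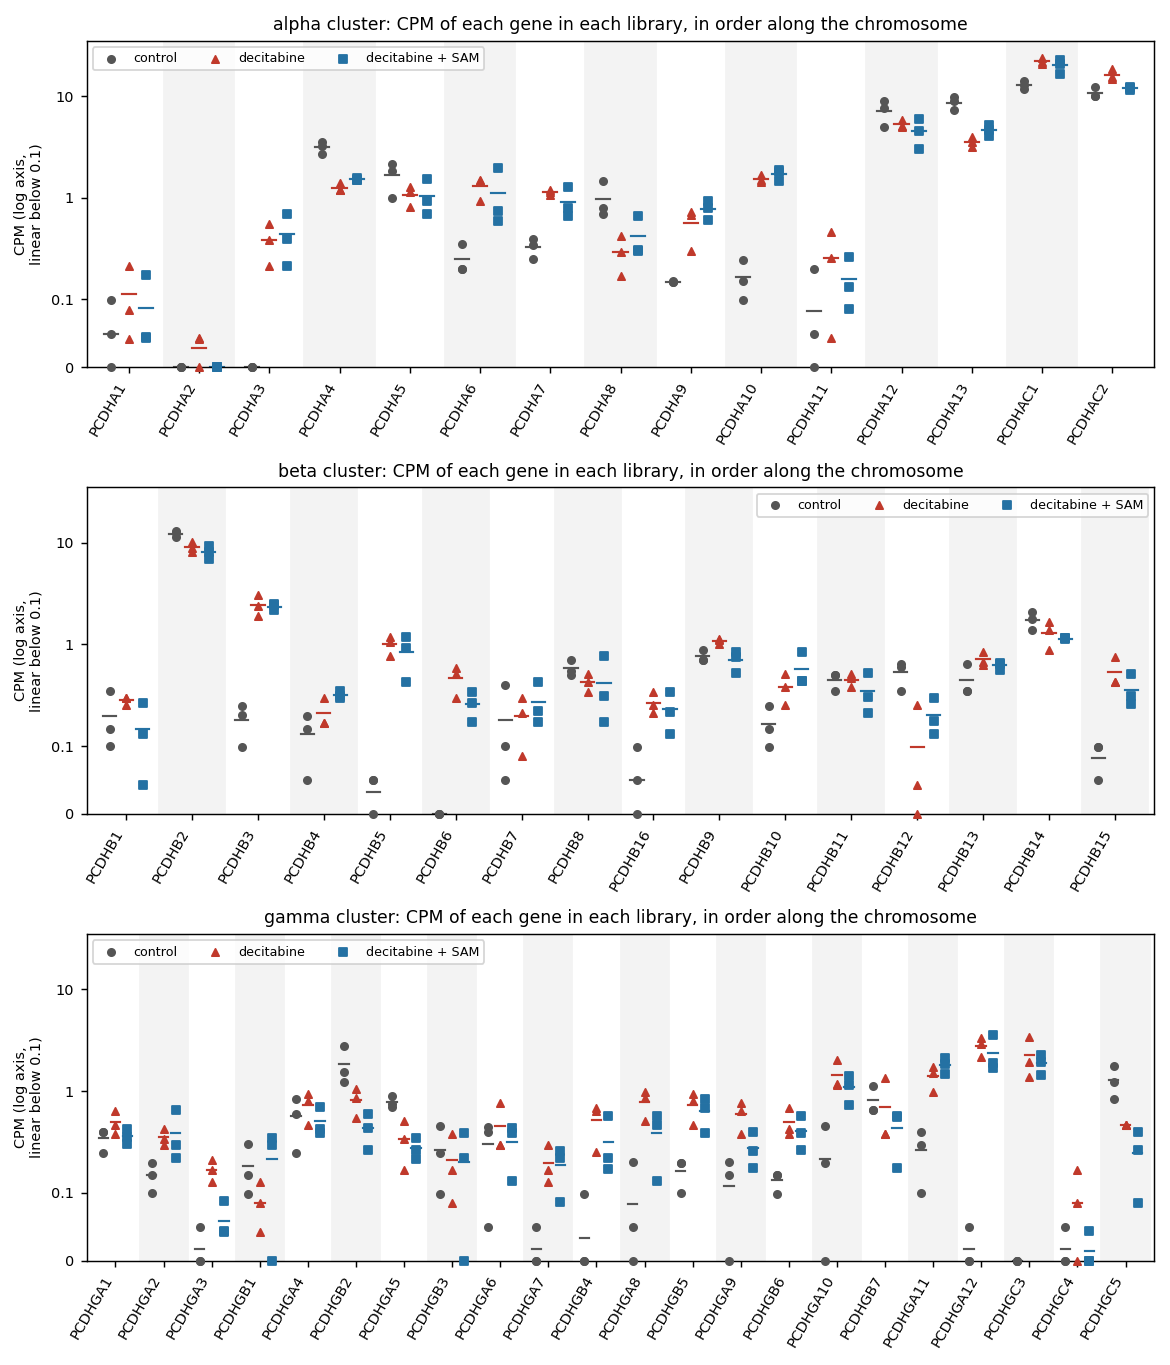
CPM of all 53 genes in every library (y axis, logarithmic above 0.1 CPM and linear below), with genes in order along the chromosome on the x axis, one panel per cluster. Points are libraries, coloured by group, and short lines are group means. Genes near 0 in the controls, such as PCDHA3, PCDHB5, PCDHGA12 and PCDHGC3, lie between 0.212 and 3.54 CPM after treatment, while PCDHA4, PCDHA13 and PCDHGC5 lie lower than in the controls.

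Of the 53 genes, 35 had enough counts to be tested (11 alpha, 10 beta and 14 gamma). After decitabine, 17 of them were higher than in the controls (48.6%) and 7 were lower, by edgeR's quasi-likelihood test with p-values adjusted over all 18532 genes tested (threshold 0.05). The background was wide. Over all genes tested, 36.3% were higher and 32.5% were lower. After the combination treatment, 17 were higher (48.6%) and 8 lower (22.9%), against a background of 35.9% and 31.3%. The median log2 fold change of the 35 genes was 0.68 after decitabine and 0.47 after the combination treatment, and that of all genes was 0.035 and 0.048. Both comparisons share the 3 control libraries. A gene passed the filter on low counts if at least 3 libraries, from any of the groups, held enough counts. Genes near 0 in the controls were thus tested only where treated libraries were higher.

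**Figure D3:**
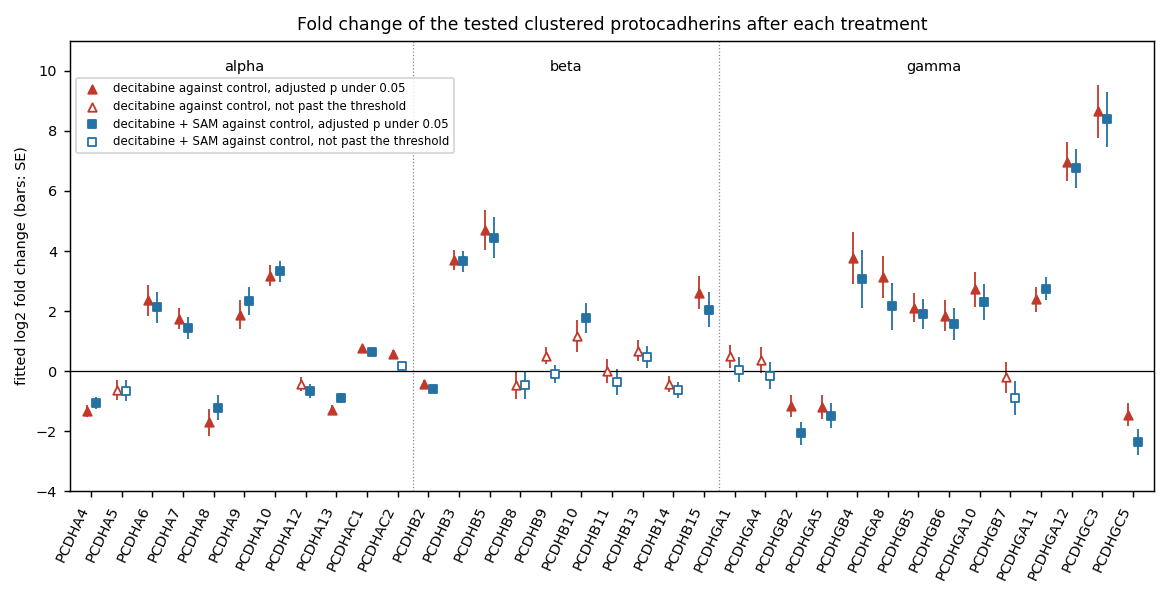
Fitted log2 fold change of the 35 tested genes (y axis, bars are SE) after decitabine (triangles) and after the combination treatment (squares), against controls. Filled symbols passed the threshold of 0.05 on the adjusted p. The gamma genes tested from PCDHGB4 to PCDHGC3, with the exception of PCDHGB7, are higher. The value of PCDHGC3, whose controls had no counts, depends on the fit and is no bound.

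In the alpha cluster, 4 genes of low level rose, while 3 of the 5 leading genes among PCDHA1 to PCDHA13 fell after both treatments. PCDHA6, PCDHA7, PCDHA9 and PCDHA10 were upregulated by both treatments, PCDHA4, PCDHA8 and PCDHA13 were downregulated by both, and PCDHA12 was downregulated by the combination treatment. The C-type genes PCDHAC1 and PCDHAC2 were upregulated by decitabine. In all, 6 of the 11 alpha genes tested were higher (54.5%) and 3 lower (27.3%) after decitabine, against 36.3% and 32.5% of all genes tested. After the combination treatment, 5 were higher (45.5%) and 4 lower (36.4%), against 35.9% and 31.3%. The shares called lower were thus near those of all genes. The split after the combination treatment became 6 and 2 when library size was the only scaling.

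PCDHA13, in the controls the alpha gene that is not C-type with the highest mean level, had 7.25, 8.85 and 9.77 CPM in the controls, 3.55, 3.92 and 3.13 after decitabine and 4.01, 5.24 and 4.64 after the combination treatment. Every treated library was below every control library. The log2 fold change was -1.29 ± 0.16 (SE, adjusted p = 7.9e-06, edgeR) after decitabine and -0.90 ± 0.16 (adjusted p = 0.00019) after the combination treatment. PCDHA4 showed the same order, with 3.53, 3.25 and 2.72 CPM in the controls, 1.18, 1.39 and 1.19 after decitabine and 1.57, 1.50 and 1.49 after the combination treatment. Its levels fell 2.52-fold (adjusted p = 4.6e-05, edgeR) and 2.08-fold (adjusted p = 0.00031). The 2 treated groups did not overlap for either gene, the combination treatment being higher, but the difference between them did not pass the test for PCDHA4 (0.27 ± 0.22, adjusted p = 0.42, edgeR) or PCDHA13 (0.39 ± 0.17, adjusted p = 0.13).

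PCDHA8 was at 0.695, 1.45 and 0.790 CPM in the controls, 0.423, 0.295 and 0.169 after decitabine and 0.305, 0.660 and 0.298 after the combination treatment. All treated libraries were lower than the controls, by a log2 fold change of -1.71 ± 0.45 (adjusted p = 0.0038, edgeR) and -1.21 ± 0.43 (adjusted p = 0.022). The second call was lost with DESeq2 (-1.21), with library size as the only scaling (-0.99), without control library 2 (-0.82), without combination library 1 (-1.04) or without combination library 3 (-1.02). PCDHA12 had 7.60, 4.95 and 8.89 CPM in the controls, 5.83, 5.10 and 4.95 after decitabine and 3.05, 4.53 and 6.01 after the combination treatment. These groups overlapped. The log2 fold change was -0.43 ± 0.24 after decitabine (adjusted p = 0.12, edgeR) and -0.66 ± 0.24 after the combination treatment (adjusted p = 0.028). The latter call was lost on leaving out control library 1 (-0.62), control library 3 (-0.48), combination library 1 (-0.45) or combination library 2 (-0.66), with library size as the only scaling (-0.43) and with only the 6 libraries compared (-0.64). The former was gained without control library 2 (-0.65) or without the filter on low counts (-0.47).

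PCDHA10 rose most among the alpha genes tested. It had 0.0993, 0.150 and 0.247 CPM in the controls, 1.44, 1.69 and 1.48 after decitabine and 1.87, 1.45 and 1.79 after the combination treatment. The groups did not overlap, and the log2 fold change was 3.17 ± 0.35 (adjusted p = 1.9e-06, edgeR) and 3.32 ± 0.35 (adjusted p = 1.1e-06). The other alpha genes that rose, PCDHA6, PCDHA7 and PCDHA9, had log2 fold changes between 1.75 and 2.36 after decitabine and between 1.44 and 2.35 after the combination treatment. PCDHA5 did not pass the test, with -0.63 ± 0.34 (adjusted p = 0.12, edgeR) and -0.65 ± 0.34 (adjusted p = 0.11).

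PCDHAC1 and PCDHAC2 held about as many counts in the controls as the sum of the 13 other alpha genes. PCDHAC1 had 11.8, 14.1 and 12.8 CPM in the controls, 20.5, 23.9 and 21.4 after decitabine and 16.5, 20.9 and 22.7 after the combination treatment. It rose 1.70-fold (adjusted p = 6.9e-05, edgeR) and 1.55-fold (adjusted p = 0.00039), with all treated libraries above the controls. PCDHAC2 had 12.2, 9.96 and 9.97 CPM in the controls, 18.3, 14.6 and 15.3 after decitabine and 12.1, 11.5 and 12.4 after the combination treatment. Decitabine raised it 1.50-fold (adjusted p = 0.0005, edgeR) without overlap, whereas after the combination treatment it overlapped the controls (1.12-fold, adjusted p = 0.24). With library size as the only scaling, that difference passed the threshold (log2 0.39).

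The sum over all 15 alpha genes, which does not depend on how reads were divided among them, was 46.2 ± 0.769 CPM in the controls (SD, n = 3), 54.8 ± 2.06 after decitabine and 49.3 ± 4.74 after the combination treatment. The decitabine libraries were at 52.6 to 56.6 and the controls at 45.4 to 46.9, while the combination libraries spread from 44.5 to 54.0. Within the cluster, the 13 genes before PCDHAC1 fell from 22.6 ± 1.43 CPM to 16.8 ± 1.17 and 17.3 ± 1.48, and PCDHAC1 and PCDHAC2 together went from 23.6 ± 0.732 to 38.0 ± 1.10 and 32.0 ± 3.28. Neither of these sums overlapped the controls.

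In the beta cluster, which has no shared exons, a single gene held most counts and fell, and a few genes near 0 rose. PCDHB2 was downregulated by both treatments. PCDHB3, PCDHB5 and PCDHB15 were upregulated by both and PCDHB10 by the combination treatment, so that 3 of the 10 genes tested were higher and 1 lower after decitabine, and 4 were higher and 1 lower after the combination treatment. The share of genes called higher was near that of all genes tested (36.3% and 35.9%). With library size as the only scaling, 6 were higher and none lower after decitabine. Another 5 genes (PCDHB8, PCDHB9, PCDHB11, PCDHB13, PCDHB14) did not pass the test after either treatment. The 9 genes tested beside PCDHB2 had means of 0.033 to 2.44 CPM.

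PCDHB2 had 12.5, 12.96 and 11.3 CPM in the controls, 8.16, 10.2 and 8.81 after decitabine and 6.88, 9.28 and 8.14 after the combination treatment. The treated libraries were all below the controls, by a log2 fold change of -0.44 ± 0.13 (adjusted p = 0.0092, edgeR) and -0.60 ± 0.13 (adjusted p = 0.0012). The first call was lost when library size was the only scaling (-0.19). PCDHB14 had 2.09, 1.40 and 1.78 CPM in the controls, 0.888, 1.65 and 1.40 after decitabine and 1.13, 1.14 and 1.15 after the combination treatment. Its decitabine libraries overlapped the controls and those of the combination treatment did not, and neither log2 fold change passed the threshold (-0.42 ± 0.26, adjusted p = 0.17, edgeR, and -0.62 ± 0.27, adjusted p = 0.054). The latter passed it without control library 2 (-0.76), without decitabine library 1 (-0.62) or with only the 6 libraries compared (-0.60).

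PCDHB3 had 0.248, 0.200 and 0.0987 CPM in the controls, 1.90, 3.04 and 2.37 after decitabine and 2.18, 2.42 and 2.47 after the combination treatment. Its log2 fold change was 3.70 ± 0.34 (adjusted p = 3.2e-07, edgeR) and 3.65 ± 0.34 (adjusted p = 4.1e-07), with no overlap. PCDHB5 had 1, 0 and 1 counts in the controls, 28, 25 and 18 after decitabine and 27, 21 and 10 after the combination treatment. From the summed counts, the ratio of scaled levels was 30.2 (95% exact interval 8.06 to 254) and 25.3 (6.70 to 214), which covers counting error only. The groups did not overlap (adjusted p = 2.1e-05 and 5e-05, edgeR). PCDHB15 rose from 5 counts over the 3 controls by a log2 fold change of 2.61 ± 0.56 (adjusted p = 0.00077, edgeR) and 2.05 ± 0.60 (adjusted p = 0.0072).

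Among the 10 beta genes tested, the lowest log2 fold change after decitabine was that of PCDHB8, -0.45 ± 0.46 (adjusted p = 0.40, edgeR). It had 0.497, 0.700 and 0.543 CPM in the controls, 0.338, 0.506 and 0.423 after decitabine and 0.174, 0.308 and 0.767 after the combination treatment, and the groups overlapped. Without combination library 3, its difference between the combination treatment and the controls passed the test (-1.25). PCDHB10 was at 0.166 ± 0.0770 CPM in the controls, 0.380 ± 0.127 after decitabine (log2 1.17 ± 0.54, adjusted p = 0.066, edgeR) and 0.576 ± 0.239 after the combination treatment (1.77 ± 0.51, adjusted p = 0.0064). The difference between the treatments was 0.59 ± 0.42 for it (adjusted p = 0.36, edgeR), which leaves the order open to the error.

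The beta sum stayed within the spread of the libraries, at 17.8 ± 0.769 CPM in the controls, 18.9 ± 2.23 after decitabine and 16.9 ± 1.82 after the combination treatment. Without PCDHB2, the other 15 genes together went from 5.55 ± 0.458 CPM to 9.86 ± 1.21 and 8.80 ± 0.852, and the groups did not overlap the controls.

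In the gamma cluster, a stretch of neighbouring genes rose together. Outside it, PCDHGB2, PCDHGA5 and PCDHGC5 fell, while PCDHGC3, the next gene after the stretch, rose. From PCDHGB4 to PCDHGA12, 8 of 9 genes could be tested, and 7 of these were higher after either treatment (PCDHGB4, PCDHGA8, PCDHGB5, PCDHGB6, PCDHGA10, PCDHGA11, PCDHGA12). The exception, PCDHGB7, had a log2 fold change of -0.20 ± 0.51 (adjusted p = 0.74, edgeR) and -0.90 ± 0.55 (adjusted p = 0.17). Of the 10 genes from PCDHGA1 to PCDHGA7, 4 could be tested, PCDHGB2 and PCDHGA5 were lower after either treatment and none of the 4 was higher. Fitted without the filter on low counts, PCDHGA7 of this stretch was called higher after both treatments and PCDHGA3 after decitabine. PCDHGA7 had 1 count over the 3 controls, and its ratio after decitabine was 11.9 (95% exact interval 1.81 to 504). For PCDHGA3, also with 1 control count, it was 10.2 (1.51 to 436). Of the C-type genes, PCDHGC3 was higher and PCDHGC5 lower. This made 8 of 14 genes higher (57.1%) and 3 lower (21.4%) in both comparisons. Over all genes tested, 36.3% were higher and 32.5% lower after decitabine, and 35.9% and 31.3% after the combination treatment. With only the 6 libraries compared in the fit, fewer of the gamma genes passed the filter on low counts, and 4 (PCDHGA10, PCDHGA11, PCDHGA12 and PCDHGC3) were called higher after the combination treatment. The borders of the stretches were drawn after the values had been seen.

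PCDHGC3 went from no counts in any control library to 81, 33 and 46 counts after decitabine and 33, 44 and 53 after the combination treatment. With the controls set to 3 counts over the group, this was at least 45.4-fold higher after decitabine and at least 37.8-fold higher after the combination treatment (adjusted p = 3.1e-06 and 5.7e-06, edgeR). PCDHGA12 had 0, 0 and 1 counts in the controls, 78, 69 and 51 after decitabine and 39, 43 and 83 after the combination treatment. The ratio was 168 (95% exact interval 29.9 to 6687) and 144 (25.5 to 5723), which covers counting error only, and the adjusted p was 3.1e-07 and 5.8e-07 (edgeR). PCDHGA12 and PCDHGC3 had the highest means of the cluster after decitabine, 2.79 ± 0.579 and 2.25 ± 1.05 CPM.

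PCDHGA10 had 0, 0.450 and 0.197 CPM in the controls, 1.14, 2.02 and 1.19 after decitabine and 1.39, 1.14 and 0.724 after the combination treatment. No treated library overlapped the controls, and the log2 fold change was 2.72 ± 0.57 (adjusted p = 0.00084, edgeR) and 2.30 ± 0.59 (adjusted p = 0.0037). Of the other genes of this stretch that rose, PCDHGA8, PCDHGB5, PCDHGB6 and PCDHGA11 had log2 fold changes of 1.85 to 3.14 after decitabine and 1.57 to 2.75 after the combination treatment. PCDHGB4 had 2 counts over the 3 controls, and its ratio was 15.7 (95% exact interval 4.06 to 135) and 9.60 (2.36 to 84.2), which covers counting error only. For PCDHGA8, the combination libraries overlapped the controls.

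PCDHGC5, PCDHGB2 and PCDHGA5 fell. PCDHGC5 had 0.844, 1.75 and 1.23 CPM in the controls, 0.465, 0.464 and 0.466 after decitabine and 0.261, 0.396 and 0.0852 after the combination treatment. The groups were ordered without overlap, with a log2 fold change of -1.45 ± 0.39 (adjusted p = 0.0040, edgeR) and -2.35 ± 0.43 (adjusted p = 0.00024). PCDHGB2 had 1.24, 2.75 and 1.53 CPM in the controls, 0.550, 1.05 and 0.847 after decitabine and 0.435, 0.264 and 0.596 after the combination treatment, and its log2 fold change was -1.17 ± 0.36 (adjusted p = 0.0095, edgeR) and -2.07 ± 0.39 (adjusted p = 0.00031). All treated libraries of PCDHGB2 were below the controls, and the first call was lost without control library 2, which had the highest value (-0.77). PCDHGA5 had 0.695, 0.750 and 0.889 CPM in the controls, 0.169, 0.337 and 0.508 after decitabine and 0.348, 0.264 and 0.213 after the combination treatment, with a log2 fold change of -1.19 ± 0.39 (adjusted p = 0.015, edgeR) and -1.48 ± 0.41 (adjusted p = 0.0051). The call after decitabine was lost without control library 3 (-1.09), without decitabine library 1 (-0.88) or with DESeq2 (-1.18). PCDHGC4 stayed at the limit of detection, with 1, 0 and 0 counts in the controls, 2, 0 and 4 after decitabine and 0, 1 and 0 after the combination treatment.

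The gamma sum changed most in proportion of the 3 cluster sums. It was 7.59 ± 1.53 CPM in the controls (6.66 to 9.36), 16.1 ± 1.43 after decitabine (14.9 to 17.7) and 12.8 ± 1.09 after the combination treatment (11.8 to 13.9), a ratio of 2.12 and 1.69 to the controls. The groups did not overlap. The 9 genes from PCDHGB4 to PCDHGA12 went from 1.84 ± 0.243 CPM to 9.47 ± 1.33 and 7.73 ± 0.648, while the 10 genes from PCDHGA1 to PCDHGA7 were at 4.46 ± 1.21, 3.85 ± 0.731 and 2.94 ± 0.439. Reads of the constant exons are divided among all 22 genes, and what this adds to the rise of neighbouring genes together was not tested.

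**Figure D4:**
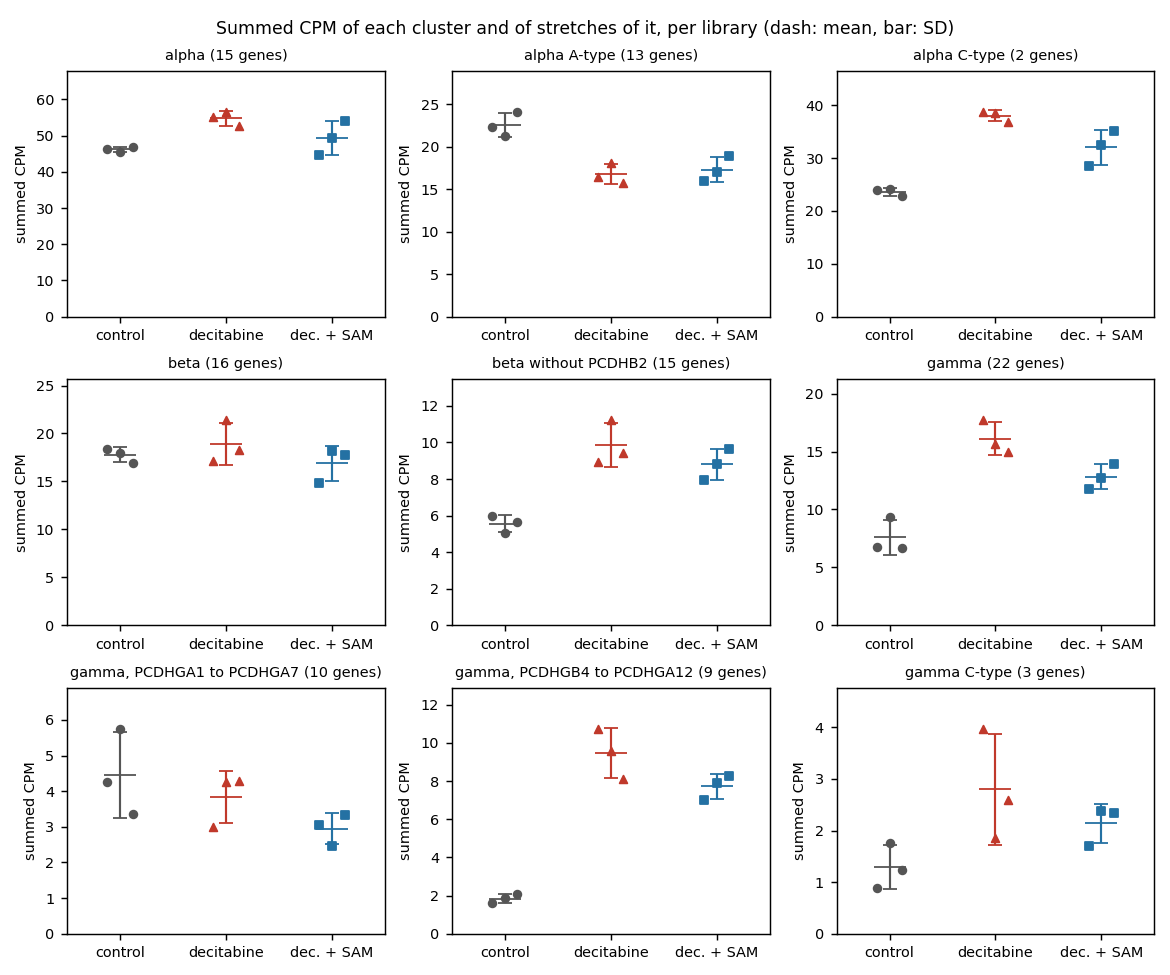
Summed CPM of each cluster and of stretches within it (y axes start at 0), per library. Points are libraries, the dash is the group mean and the bar its SD (n = 3). The gamma sum rises from 7.59 to 16.1 and 12.8, the genes from PCDHGB4 to PCDHGA12 carry most of the rise, and the beta sum stays between 14.8 and 21.4 in all libraries.

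The composition of the beta cluster and of PCDHA1 to PCDHA13 became more even, and that of the alpha cluster as a whole less even. PCDHA13, PCDHA12, PCDHA4, PCDHA5 and PCDHA8, the 5 leading genes of PCDHA1 to PCDHA13 in the controls, held 94.9 to 95.9% of the counts of these 13 genes in the controls, 66.4 to 71.9% after decitabine and 60.2 to 75.3% after the combination treatment. The effective number of genes, which is 1 when a single gene holds all counts and equals the number of genes when all hold as many, went from 3.63 ± 0.396 to 5.67 ± 0.596 and 5.78 ± 0.926 over these 13. In the beta cluster, it went from 2.05 ± 0.141 to 3.82 ± 0.0607 and 3.81 ± 0.350, with PCDHB2 falling from 68.8% of the counts on average to 47.9% and 47.8%. In the gamma cluster, it was 7.92 ± 1.77, 11.4 ± 1.49 and 9.95 ± 1.32, with overlap between libraries of the controls and of both treatments. Over all 15 alpha genes, it went from 5.01 ± 0.135 to 3.78 ± 0.0388 and 4.08 ± 0.247, since PCDHAC1 alone took 28.0% of the counts in the controls and 40.0% and 40.4% after treatment.

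**Figure D5:**
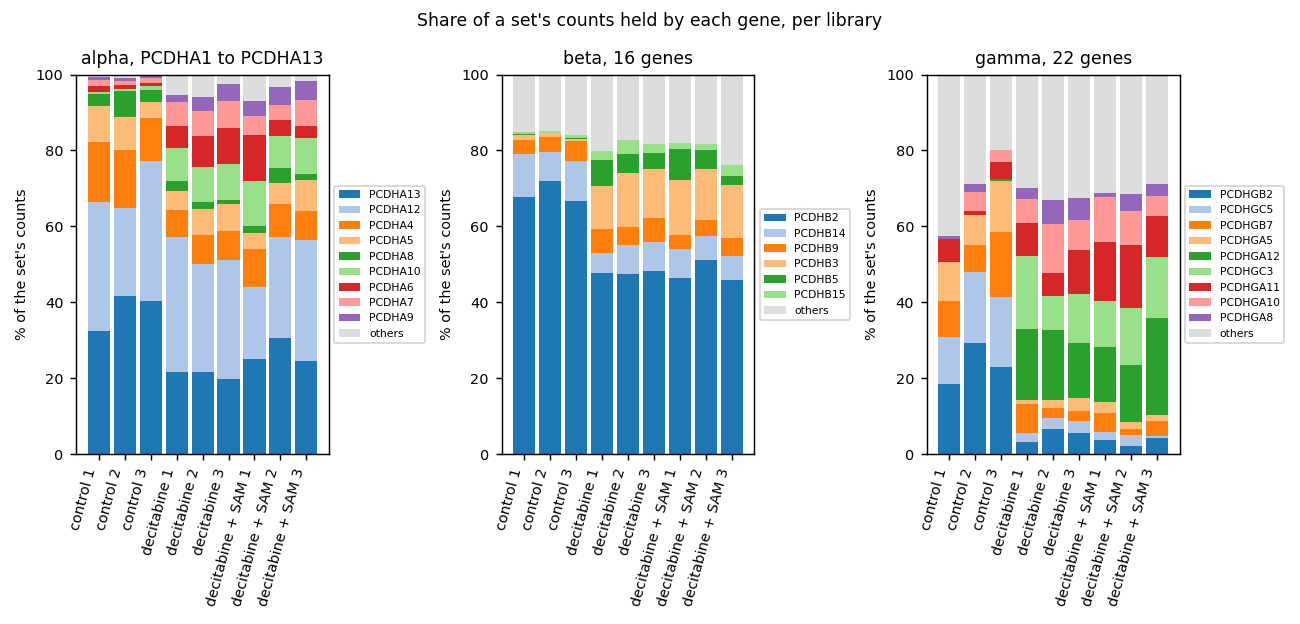
Share of the counts of a set held by each gene (y axis, percent), one bar per library, for PCDHA1 to PCDHA13, the beta cluster and the gamma cluster. The lower, blue and orange parts in the controls (PCDHA13, PCDHA12 and PCDHA4, PCDHB2, and PCDHGB2, PCDHGC5 and PCDHGB7) take a smaller part after both treatments, except PCDHA12, whose mean share is 31.3% in the controls, 31.7% after decitabine and 25.8% after the combination treatment.

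The 18 genes with too few counts for a test were PCDHA1, PCDHA2, PCDHA3, PCDHA11, PCDHB1, PCDHB4, PCDHB6, PCDHB7, PCDHB12, PCDHB16, PCDHGA2, PCDHGA3, PCDHGA6, PCDHGA7, PCDHGA9, PCDHGB1, PCDHGB3 and PCDHGC4. Some of them were at 0 in every control. PCDHA3 had 9, 13 and 5 counts after decitabine and 16, 9 and 5 after the combination treatment, at least 7.66-fold and 8.73-fold higher than the 3 counts set for the controls. PCDHB6 had 7, 14 and 12 counts and 4, 6 and 8 counts, at least 9.36-fold and 5.24-fold higher. PCDHB12, in contrast, had 7, 12 and 13 counts in the controls, 1, 0 and 6 after decitabine and 3, 4 and 7 after the combination treatment. PCDHA2 had at most 1 count in any library. Fitted without the filter, all 53 genes entered the test, and 23 were higher and 9 lower after decitabine, against 21.4% and 17.1% of all genes in that fit. After the combination treatment, 21 were higher and 9 lower, against 20.8% and 16.3%. These genes of low counts were chosen for mention after their values had been seen.

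The 2 treated groups were also compared directly. None of these libraries received SAM alone. This comparison therefore cannot separate an effect of SAM itself from a change in the effect of decitabine. Of the 35 genes, 1 was lower after the combination treatment (PCDHAC2) and none was higher, against a background of 8.02% lower and 7.67% higher over all genes tested. At an unadjusted p under 0.05, 2 were lower and 1 higher, and DESeq2 and limma also called 1 lower and none higher. PCDHAC2 fell by 0.42 ± 0.12 on the log2 scale (adjusted p = 0.027, edgeR), and its 3 combination libraries (11.5 to 12.4 CPM) lay below its 3 decitabine libraries (14.6 to 18.3). The call was lost without decitabine library 1 (-0.32), combination library 1 (-0.43) or combination library 2 (-0.39). The median log2 difference of the 35 genes was -0.24, against 0.0021 over all genes, and the gamma sum was 0.795 times that after decitabine. For single genes, the intervals were wide. PCDHGC3 differed by -0.26 ± 0.32, PCDHGA12 by -0.23 ± 0.29, PCDHB3 by -0.05 ± 0.23 and PCDHA10 by 0.15 ± 0.24, with adjusted p between 0.62 and 0.91 (edgeR), which does not show that the treatments act alike. PCDHGC5 (-0.90 ± 0.49) and PCDHGB2 (-0.91 ± 0.43) had larger differences that did not pass (adjusted p = 0.23 and 0.16, edgeR).

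Among genes known to act on these clusters, more were lower than higher. Of 24 regulators (CTCF, cohesin subunits, DNA methyltransferases, TET enzymes and silencing factors), 18 were lower and 3 higher after decitabine, and 18 were lower and 2 higher after the combination treatment, against 32.5% lower and 36.3% higher over all genes tested after decitabine and 31.3% and 35.9% after the combination treatment. CTCF, which binds the CGCT element and the enhancers, fell by 0.71 ± 0.07 and 0.55 ± 0.07 on the log2 scale. DNMT1, the maintenance methyltransferase that decitabine traps, fell by 0.81 ± 0.10 and 0.77 ± 0.10. Against this, DNMT3B, a de novo methyltransferase, was higher by 0.73 ± 0.14 and 0.77 ± 0.14. SMCHD1, a silencer of the clusters, was 0.38 ± 0.09 higher after decitabine (adjusted p = 0.0014, edgeR) and at 0.04 ± 0.09 after the combination treatment (adjusted p = 0.72), and the 2 treatments differed (-0.34 ± 0.09, adjusted p = 0.018). The other regulator that differed between them, UHRF1, a partner of DNMT1 named after its values had been seen, was higher after the combination treatment than after decitabine (0.55 ± 0.10, adjusted p = 0.0039, edgeR). TET1 (-2.19 and -2.24) and EHMT2 (-1.13 after decitabine) fell most among the regulators, and LRIF1 rose by 0.87 and 0.69 on the log2 scale.

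Other genes were set beside the clusters for comparison. Their counts are to be read against the shares over all genes tested. These were 36.3% higher and 32.5% lower after decitabine, and 35.9% higher and 31.3% lower after the combination treatment. Of the protocadherins outside the clusters, 8 of 12 had enough counts, and 6 of these were higher and 2 lower after decitabine, and 5 higher and 1 lower after the combination treatment. PCDH7 was higher by 1.47 ± 0.20 and 1.03 ± 0.21, and PCDH9 fell by 1.30 ± 0.14 and 1.50 ± 0.14. Of 17 other genes of the locus and its surroundings that were tested, 7 were higher and 6 lower after each treatment, shares near those of all genes (36.3% and 32.5% after decitabine). PCDH1 and PCDH12 were counted in both of these lists. DND1, an RNA-binding protein of germ cells, was higher by 2.56 ± 0.25 and 2.93 ± 0.25, and ARAP3, a GTPase-activating protein, fell by 1.64 ± 0.10 and 1.50 ± 0.10 on the log2 scale. Of 20 signalling and processing partners tested, 5 were higher and 11 lower after decitabine, and 4 higher and 10 lower after the combination treatment. Among them, the focal adhesion kinases, which protocadherins are known to inhibit, moved apart: PTK2B was 1.29 ± 0.13 and 0.98 ± 0.13 higher, while PTK2 fell by 0.78 ± 0.08 and 1.14 ± 0.08. Of 6 other cadherins tested, 2 were higher and 2 lower after decitabine, and 4 higher and 2 lower after the combination treatment. CDH1 and CDH2 rose by 2.94 ± 0.13 and 1.54 ± 0.08 on the log2 scale after decitabine.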

How the data were processed

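The authors sequenced total RNA of the treated PC-3 cells on the BGISEQ-500 platform, checked reads with FastQC, trimmed them with Trim Galore 0.6.4 and counted them with kallisto, with GRCh38.p13 as the genome. The authors deposited kallisto's estimated counts, summed to Ensembl genes, without normalization; these were used. The annotation release and the use of strand are not given in the sources used here. The log2 CPM values the authors deposited for the same libraries were not used.

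Gene symbols were taken from GENCODE 44, which matched 60357 of 60617 identifiers. The protocadherins and all gene lists were chosen with earlier results of these data known. Counts were rounded and fitted with edgeR 4.0.16 in R 4.3.3 (filterByExpr, TMM scaling, robust quasi-likelihood test, all 9 libraries, 1 mean per group), and p-values were adjusted over 18532 genes by the Benjamini-Hochberg method. This count test replaced the voom and limma test named in the study, which was an alternative (limma 3.58.1), as were DESeq2 1.42.0, other scalings and filters, a replicate term and leaving out each library. The script was tested on simulated data. CPM are rounded counts over the scaled library size. SE are those of the fitted log2 fold change. Groups without counts were set to 3 counts over the group for a lower bound, and ratios with 1 to 3 control counts have exact 95% intervals. Both cover counting error only. Genes given with the value of every library were the 3 highest of each cluster after decitabine, the C-type genes, the largest and smallest fold change of each cluster, and those that fell or differed between the treatments. From the other lists, at most 2 genes per direction were named, plus DNMT1, DNMT3B, CTCF and SMCHD1. Promoter sequences are from RefSeq (GRCh38.p14), in Python 3.11.15. Some markers of the line are not reported here.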

Additional observations from a re-analysis of the deposited data

How the results depend on the processing

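Under the alternatives, 384 values of cluster counts and sums stayed within 1.5 times the count or 1 SD of the sum, and 39 moved. Of the 19 named genes, PCDHGC4 had too few counts for a test and is not included. For the others, 603 values stayed on the same side of the threshold, 19 lost the call, 7 gained it and none changed sign.

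With library size as the only scaling, the all-gene median on the log2 scale moved to 0.28 after decitabine and 0.27 after the combination treatment. The log2 ratio of the summed CPM to the controls then became 0.49 and 0.32 for the alpha cluster, 0.33 and 0.15 for the beta cluster, and 1.33 and 0.98 for the gamma cluster, against 0.25, 0.095, 0.088, -0.074, 1.09 and 0.76 with TMM. The beta ratio after the combination treatment thus changed sign, and the order of the clusters did not change in these 6 ratios. Beta genes became 6 higher and 0 lower after decitabine, and alpha genes 2 lower after the combination treatment. Without the filter, 5 beta genes were higher and 2 lower after decitabine and 2 lower after the combination treatment. With a mean of at least 10 counts, which tests fewer genes, 5 gamma genes were higher after either treatment and 2 beta genes were higher after the combination treatment. With only the 6 libraries compared, 4 gamma genes were higher and 2 beta genes lower after the combination treatment, the gamma genes lost having failed the filter. With an absolute log2 fold change of at least 1 in addition, no beta gene (0) was lower after either treatment, 2 alpha genes were lower after the combination treatment, and 0 genes differed between the treatments.

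Leaving out each library in turn gave 3 to 5 beta genes higher and 1 to 2 lower after decitabine, 2 to 4 alpha genes and 1 to 3 beta genes lower after the combination treatment, and 0 to 1 alpha genes lower in the combination treatment than in decitabine. Leaving out a library lets genes with fewer counts pass the filter: the beta gene gained as lower was PCDHB12, except that it was PCDHB14 in the second comparison without control library 2 or decitabine library 1, and PCDHB8 was gained too without combination library 3. The 5 beta genes higher were counted without control library 3, and the 2 alpha genes lower without combination library 1.

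The groups share replicate numbers. Deviations of libraries with the same number correlated at 0.233, 0.0359 and 0.229 between the treated groups, where each library was closest to its own number. With the controls, they correlated at -0.0165 to 0.0694. By this check, the numbers may pair the treated libraries with each other, and they do not pair them with the controls. With the replicate block, all 18 counts per cluster and direction were unchanged, for example 6 alpha genes higher after decitabine. Depth limits the low genes, since 18 of the 53 had too few counts to be tested.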
